A study of Homo sapiens with 12 samples.

Results

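The genes described here encode the ubiquitin-conjugating enzymes, or E2s, measured by microarray in TC32 and HCT116 cells after transfection with an siRNA against PRKDC. PRKDC encodes the catalytic subunit of the DNA-dependent protein kinase, which acts in the repair of DNA double-strand breaks by end joining. The members were the HumanHT-12 v4 probes annotated to a symbol made of UBE2 and a letter, or to BIRC6, CDC34 or AKTIP. The annotation paired 62 probes with such symbols. Of these, 7 belonged to pseudogenes and were dropped, and 1 was annotated to the non-coding RNA UBE2D3-AS1 and was set aside. This left 54 probes of 29 genes, out of 47322 probes on the array. Kept were probes detected (p-value under 0.05) in every sample of 1 group or more, which held for 36 of the 54 E2 probes, from 25 genes, and for 16555 probes in all.

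The 4 groups of 3 samples were compared: TC32 with siPRKDC, TC32 with the control siRNA siNeg, HCT116 with siPRKDC and HCT116 with siNeg. The siRNAs were used at 20 nM and the cells harvested after 48 h. TC32 is an established Ewing sarcoma line grown in RPMI-1640, and HCT116 is an established colorectal carcinoma line grown in DMEM, so line and medium cannot be told apart. The labels give neither the siRNA sequences nor their number. With siPRKDC as the only treatment against PRKDC, its loss and other effects of the siRNA cannot be told apart. The labels also do not say whether the replicates were separate cultures, so the p-values measure a spread between samples that may be technical.

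Ubiquitin is attached to proteins by a cascade. An E1 enzyme activates ubiquitin, an E2 takes it over on its active-site cysteine, and an E3 ligase brings the loaded E2 to a substrate. The E2 often sets which kind of chain is built, and some E2s carry ubiquitin-like modifiers such as ISG15 or NEDD8 instead. UBE2E1, UBE2E2 and UBE2E3 form a subfamily whose members share a conserved core behind an N-terminal extension.

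Promoter sequence is shown for UBE2E3, the E2 with the largest change in both lines, and for UBE2T, another E2 that fell in both. UBE2C also fell in both lines and is not shown, so the sequences do not describe the falling E2s as a set. RefSeq's table for GRCh38.p14 gave a promoter window for 23 of the 29 genes. Each sequence is the 250 bases before an annotated start, on the strand of the gene. The table holds 2 windows for UBE2E3, and the one shown lies upstream of its first start; the other is not shown. Capitals mark CCAAT, the box bound by NF-Y, and TTTGAA, an element known from promoters of cell-cycle genes.

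UBE2E3, chr2:180980110-180980359, plus strand: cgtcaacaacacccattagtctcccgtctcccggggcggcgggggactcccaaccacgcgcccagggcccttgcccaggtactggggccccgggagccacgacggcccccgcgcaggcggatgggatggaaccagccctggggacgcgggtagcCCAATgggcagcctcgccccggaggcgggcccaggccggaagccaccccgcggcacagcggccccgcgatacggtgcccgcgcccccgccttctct
UBE2T, chr1:202341937-202342186, minus strand: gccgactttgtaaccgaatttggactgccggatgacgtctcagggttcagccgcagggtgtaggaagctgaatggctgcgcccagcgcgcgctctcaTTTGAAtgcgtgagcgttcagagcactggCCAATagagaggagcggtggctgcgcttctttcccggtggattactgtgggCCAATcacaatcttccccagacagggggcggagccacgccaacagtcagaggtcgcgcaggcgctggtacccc

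The UBE2E3 window held CCAAT once, beginning at -96 from that start. The UBE2T window held CCAAT at -124 and -73 and TTTGAA at -153. Searched on both strands, CCAAT was present in 32% and TTTGAA in 13.3% of 35116 windows.

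PRKDC on its brightest probe and the kept marker genes of both lines followed the labels. Detected probes numbered 15396 to 16216 in TC32 with siPRKDC, 16324 to 16603 in TC32 with siNeg, 17101 to 18153 in HCT116 with siPRKDC and 17658 to 17740 in HCT116 with siNeg. On the brightest of 3 PRKDC probes, the normalized log2 intensity was 5.21, 5.03 and 5.66 with siPRKDC, against 6.61, 6.61 and 6.90 with siNeg, in TC32. In HCT116 it was 4.48, 4.51 and 4.79 with siPRKDC, against 7.28, 7.42 and 7.05 with siNeg. The log2 change was -1.41 in TC32 and -2.66 in HCT116. The other 2 probes were also lower with siPRKDC in both lines. They were detected on 0 or 1 siPRKDC arrays per line and kept only through siNeg, where they were high, so this is a description. All 9 kept Ewing sarcoma markers were higher, and all 9 kept epithelial markers lower, in TC32 than in HCT116 under siNeg. Of the 9 epithelial markers, 8 were detected on no TC32 siNeg array. Apart from CD99, CAV1, STEAP1 and KRT18, these markers were kept only through the line where they were high, so their direction is a description. The epithelial markers CEACAM5 and VIL1 were detected on no array and CLDN4 on no siNeg array, and none of these was kept. The number of arrays limits the precision of every value that follows.

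UBE2E3 fell in both lines, with the largest fall among the 25 E2 genes in each. It encodes an E2 that is imported into the nucleus by importin-11 when loaded with ubiquitin. On its brightest probe (ILMN_2390338), the log2 intensity was 5.68, 5.27 and 5.33 in TC32 with siPRKDC, against 7.52, 7.68 and 7.28 in TC32 with siNeg. In HCT116 the same probe read 5.93, 6.05 and 6.12 with siPRKDC, against 7.78, 7.74 and 7.80 with siNeg. The groups did not overlap in either line, and the gap between them was several times the spread within a group. The log2 change was -2.07 in TC32 (SE 0.12, adjusted p = 1.14e-11, limma), 4.19-fold lower, and -1.74 in HCT116 (SE 0.12, adjusted p = 1.27e-09), 3.35-fold lower. Counted from the largest fall, the probe stood 18th of the 16555 kept probes in TC32 and 4th in HCT116.

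A second UBE2E3 probe annotated to the same transcript (ILMN_1669553) also fell. It read 4.89, 4.68 and 4.57 in TC32 with siPRKDC, against 5.80, 6.14 and 6.01 with siNeg, so that it changed by -1.27 (SE 0.11, adjusted p = 1.04e-08). The HCT116 arrays read 5.02, 4.98 and 5.06 with siPRKDC, against 6.40, 6.57 and 6.69 with siNeg, so that it changed by -1.53 there (SE 0.11, adjusted p = 3.74e-09). It stood 122nd from the largest fall in TC32 and 7th in HCT116. Both probes were detected on all 12 arrays.

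The third kept probe (ILMN_1765714), annotated to another UBE2E3 transcript, lay near the detection limit on all arrays. In HCT116 it read 4.72, 4.60 and 4.54 with siPRKDC, detected on all 3 arrays, against 4.21, 4.14 and 4.18 with siNeg, detected on none. In TC32 it read 4.14, 4.45 and 4.17 with siPRKDC, detected on 1 array, against 4.17, 4.28 and 4.17 with siNeg, detected on none. The probe was kept only through the HCT116 siPRKDC group, where it was high. Its values are therefore given as a description, and its calls in the counts by probe below carry no support. The remaining 4 UBE2E3 probes were annotated to the same transcript as the brightest and second probes, and were not kept. They read 4.09 to 4.57 and were detected on 1 or 2 of the 12 arrays each. They were thus not well above background, with siNeg as with siPRKDC, and cannot show whether that transcript fell.

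**Figure D1:**
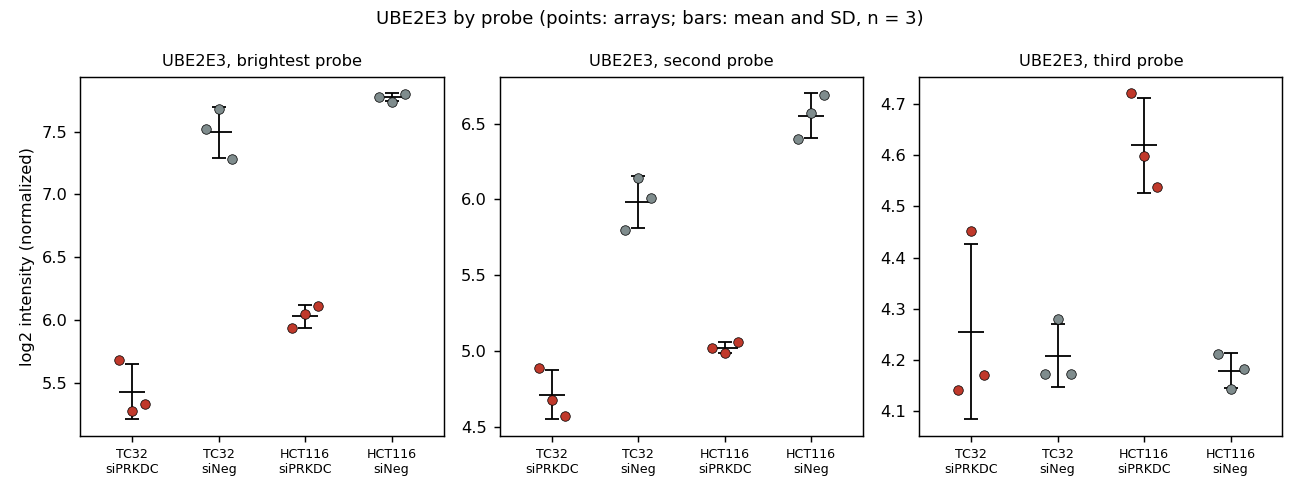
Normalized log2 intensity of the 3 kept UBE2E3 probes in each of the 12 arrays, by group, with group mean and SD (n = 3) and a separate scale per panel. On the brightest and second probes every siPRKDC array lies below every siNeg array of its line, while the third probe stays near 4.1 to 4.7 throughout.

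The size of the fall was not shown to differ between the lines. The change in TC32 minus that in HCT116 was -0.32 on the brightest probe (95% interval -0.66 to 0.02, adjusted p = 0.153) and 0.26 on the second (-0.06 to 0.58, adjusted p = 0.230). The 2 estimates have opposite signs. In TC32 with siPRKDC the second probe read 4.57 to 4.89, close to the detection limit of 4.40 to 4.44, so the size of its fall there is less certain. Without background correction the falls were smaller, -1.25 and -0.54 in TC32 and -1.18 and -0.76 in HCT116 for the brightest and second probes, and each was still called.

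The closest relatives of UBE2E3 showed smaller changes, in TC32 in opposite directions. UBE2E1, which can monoubiquitinate substrates, read 8.85, 8.81 and 8.90 in TC32 with siPRKDC, against 9.37, 9.31 and 9.40 with siNeg. Its log2 intensity fell by 0.50 (SE 0.09, adjusted p = 1.49e-04), and its second probe by 0.41 (adjusted p = 0.00282). In HCT116 UBE2E1 read 9.08, 8.91 and 8.99 with siPRKDC, against 8.93, 9.04 and 8.86 with siNeg. The groups overlapped there, and the change was 0.05 (95% interval -0.14 to 0.24, adjusted p = 0.806).

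UBE2E2, the remaining member of the subfamily, moved the other way in TC32. It read 6.55, 6.57 and 6.48 with siPRKDC, against 6.16, 6.11 and 6.10 with siNeg, and rose by 0.41 (SE 0.11, adjusted p = 0.00458). UBE2E2 in HCT116 read 6.90, 6.98 and 6.80 with siPRKDC, against 6.60, 7.09 and 6.71 with siNeg, a change of 0.10 (95% interval -0.13 to 0.32, adjusted p = 0.620).

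**Figure D2:**
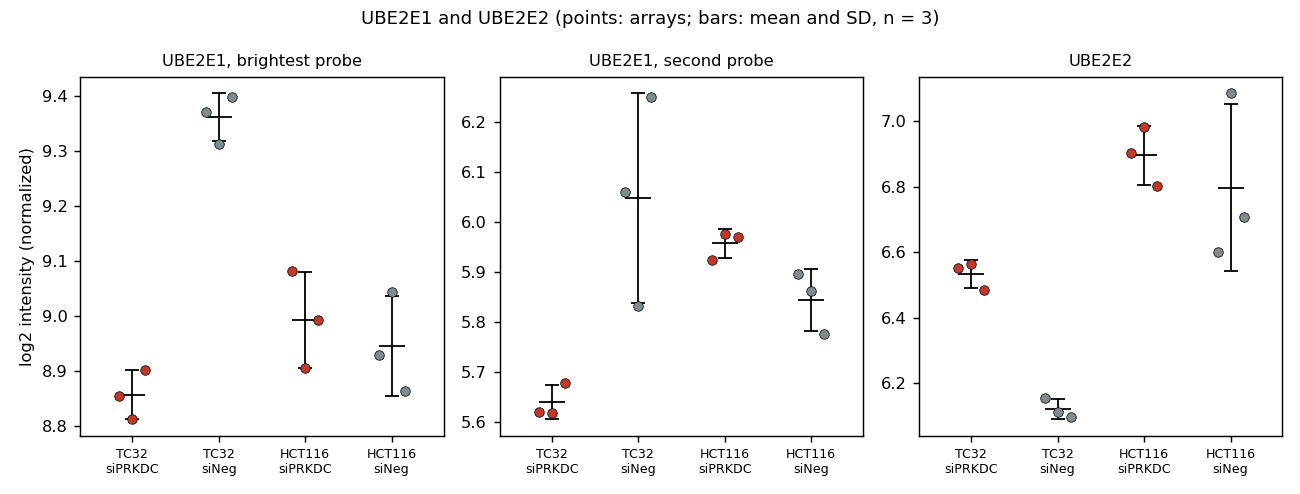
Normalized log2 intensity of both UBE2E1 probes and of UBE2E2 on each of the 12 arrays, by group, with group mean and SD (n = 3) and a separate scale per panel. In TC32 both UBE2E1 probes are lower and UBE2E2 is higher with siPRKDC; in HCT116 UBE2E2 and the brightest UBE2E1 probe overlap between siPRKDC and siNeg.

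The change of UBE2E3 was set against that of each relative within arrays. On brightest probes, the UBE2E3 change minus that of UBE2E1 was -1.56 in TC32 and -1.79 in HCT116, and minus that of UBE2E2 it was -2.48 in TC32 and -1.84 in HCT116. Each of these had p = 0.1 in an exact two-sided permutation test, the smallest that 3 against 3 allows, and none can therefore pass 0.05. With the second UBE2E3 probe the values were -0.77 and -1.58 against UBE2E1, and -1.68 and -1.63 against UBE2E2, in TC32 and HCT116 in that order, again with an exact permutation p of 0.1 each (8 tests, Benjamini-Hochberg adjusted p = 0.1). Averaged over both lines with samples exchanged only within a line, the difference was -1.68 against UBE2E1 and -2.16 against UBE2E2, each with p = 0.005 in an exact permutation test, the smallest that 400 arrangements give. This averaged test was added after the data had been seen. With every single-line test at its smallest p and of the same sign, its outcome was already fixed. It therefore adds no support beyond the single-line tests.

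Across the family, 17 of the 25 E2 genes were called in TC32, 10 up and 7 down, when each gene was read by its brightest probe. Among all 10386 genes read this way, 41.4% were called in TC32, 21% up and 20.4% down. The median log2 change of the E2 genes was 0.05, against 0.01 for all genes. In HCT116, 6 of the 25 were called, 2 up and 4 down, against 17% of all genes, 8.32% up and 8.66% down. The median there was -0.03, against 0.00 for all genes. By probe, 12 of 36 rose and 10 fell in TC32, against 19.1% and 18.7% of all kept probes (37.8% together). In HCT116, 3 of the 36 rose and 5 fell, against 7.41% and 7.42% (14.8% together), and 1 of the 3 that rose was ILMN_1765714. UBE2E3 was thus not the only E2 to fall: UBE2C and UBE2T also fell in both lines, and UBE2E1, UBE2L6, AKTIP and CDC34 fell in TC32. Leaving UBE2E3 out, the changes of the other 24 genes ran from -0.52 (UBE2C) to 1.34 (UBE2D4) in TC32 and from -0.54 (UBE2C) to 0.81 (UBE2G2) in HCT116.

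**Figure D3:**
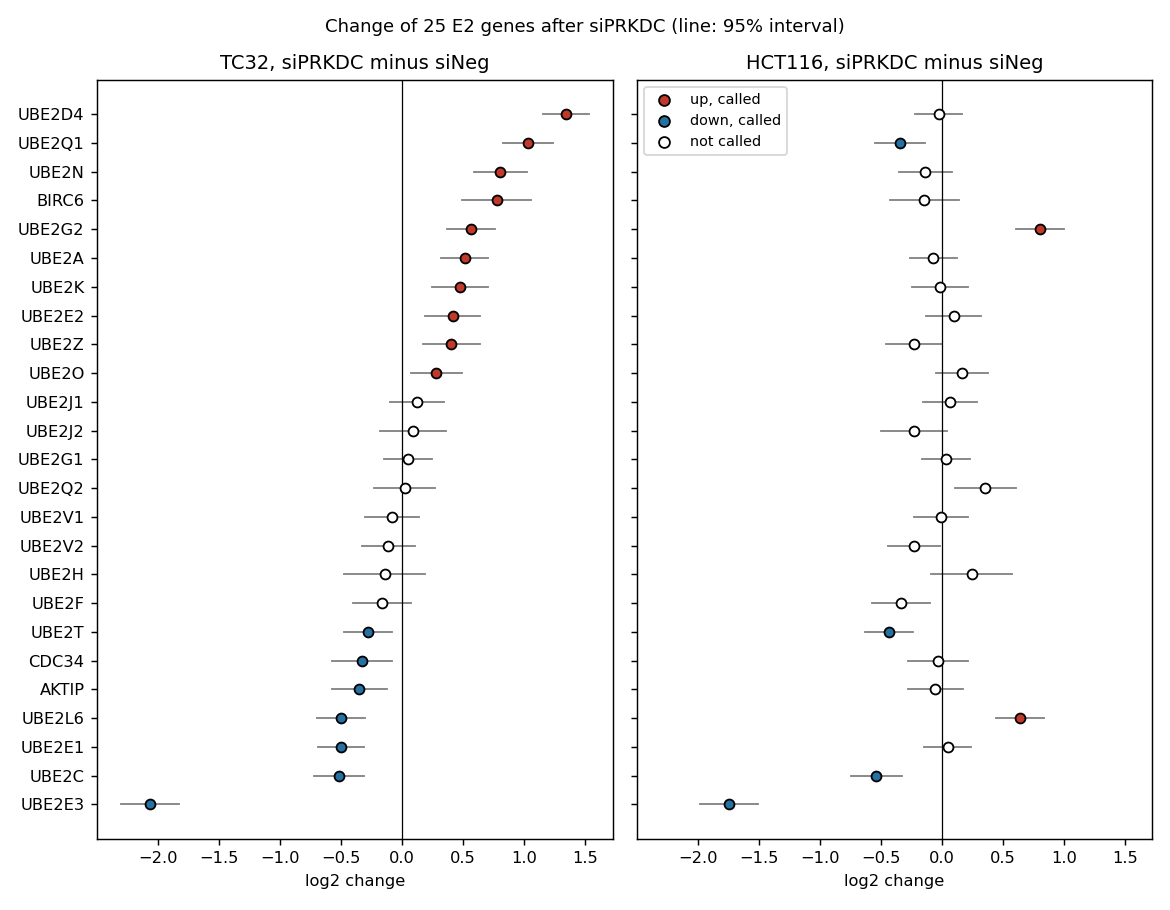
Log2 change, siPRKDC minus siNeg, of the 25 E2 genes on their brightest probes in TC32 (left) and HCT116 (right), ordered by the change in TC32, with 95% intervals and filled points for called genes. UBE2E3 stands at -2.07 and -1.74, and no other E2 gene lies below -0.54 in either line.

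UBE2D4, an E2 of the UBE2D subfamily, which works with many E3 ligases, showed the largest rise in TC32. It read 7.29, 7.17 and 7.21 with siPRKDC, against 5.93, 5.76 and 5.96 with siNeg, and so rose by 1.34 (SE 0.09, adjusted p = 3.16e-10). The HCT116 values were 6.18, 6.20 and 6.10 with siPRKDC, against 6.22, 6.23 and 6.11 with siNeg. The overlap there was nearly complete, and the change was -0.03 (95% interval -0.22 to 0.17). UBE2D1, UBE2D2 and UBE2D3 were not analysed here.

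UBE2Q1 moved in opposite directions. In TC32 it read 6.12, 6.23 and 6.04 with siPRKDC, against 5.09, 4.96 and 5.24 with siNeg, and rose by 1.03 (SE 0.10, adjusted p = 3.97e-08). The HCT116 arrays gave 5.11, 5.30 and 5.15 with siPRKDC, against 5.53, 5.55 and 5.50 with siNeg, and fell by 0.34 (SE 0.10, adjusted p = 0.0203). The HCT116 call was lost without siNeg replicate 1 or 2 or siPRKDC replicate 1 or 3, with adjusted p of 0.0576 to 0.0842.

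Among E2s that build signalling chains, UBE2N, which makes lysine-63 chains together with UBE2V1 or UBE2V2, rose by 0.80 in TC32 (SE 0.10, adjusted p = 2.77e-06). It read 8.10, 8.25 and 8.15 with siPRKDC, against 7.25, 7.42 and 7.42 with siNeg. In HCT116 its change was -0.14 (adjusted p = 0.439). Its catalytically inactive partners were not called in either line: UBE2V1 changed by -0.09 in TC32 and -0.01 in HCT116, and UBE2V2 by -0.11 and -0.23. UBE2A, an E2 for ubiquitination of histone H2B and PCNA, rose by 0.51 in TC32 (adjusted p = 1.54e-04), at 8.25 to 8.37 with siPRKDC against 7.70 to 7.83 with siNeg, and changed by -0.07 in HCT116. BIRC6, a giant protein that joins E2 and E3 activity and inhibits apoptosis, rose by 0.78 in TC32 (SE 0.14, adjusted p = 1.11e-04) and changed by -0.14 in HCT116.

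Of the E2s of lysine-48 chains and of protein disposal at the endoplasmic reticulum, UBE2G2 rose in both lines. It read 8.78, 8.86 and 8.65 in TC32 with siPRKDC, against 8.26, 8.18 and 8.15 with siNeg, a change of 0.56 (SE 0.09, adjusted p = 6.20e-05). UBE2G2 in HCT116 read 8.02, 7.83 and 7.95 with siPRKDC, against 7.20, 7.08 and 7.09 with siNeg, a change of 0.81 (SE 0.09, adjusted p = 4.11e-06). It was the only E2 gene called up in both lines.

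UBE2K, which extends lysine-48 chains, rose by 0.47 in TC32 (adjusted p = 0.00199), while its dim second probe changed by -0.09 and was not called. CDC34, the E2 of cullin-RING ligases, fell by 0.33 in TC32 (adjusted p = 0.0304), although its groups overlapped, at 5.28 to 5.62 with siPRKDC and 5.58 to 5.86 with siNeg. The CDC34 call was lost in 7 alternatives, among them without siNeg replicate 1 or 3 or siPRKDC replicate 1 or 2, with adjusted p up to 0.124. UBE2G1 depended on the probe: its brightest changed by 0.05 in TC32 and was not called, and the other rose by 0.84 (adjusted p = 1.12e-07), at 6.75 to 6.81 with siPRKDC against 5.92 to 5.98 with siNeg. UBE2J1 and UBE2J2, which sit in the membrane of the endoplasmic reticulum, were not called in either line.

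UBE2L6, the E2 that carries the interferon-induced modifier ISG15, fell in TC32 and rose in HCT116. In TC32 it read 7.47, 7.43 and 7.35 with siPRKDC, against 7.88, 7.85 and 8.02 with siNeg, a change of -0.50 (SE 0.10, adjusted p = 2.50e-04), and its second probe fell by 0.42. UBE2L6 in HCT116 read 7.95, 7.84 and 8.0 with siPRKDC, against 7.18, 7.41 and 7.27 with siNeg, a change of 0.64 (SE 0.10, adjusted p = 7.11e-05). The second probe changed by 0.17 in HCT116 and was not called.

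The other parts of ISG15 conjugation were read beside it. ISG15 itself fell by 0.91 in TC32 (adjusted p = 2.34e-07), at 6.97, 7.16 and 6.96 with siPRKDC against 7.97, 7.82 and 8.02 with siNeg, and changed by 0.19 in HCT116 (adjusted p = 0.219). UBA7, the E1 for ISG15, read 4.39, 4.33 and 4.26 in TC32 with siPRKDC, detected on no array, against 4.48, 4.66 and 4.92 with siNeg, detected on all 3. In HCT116 it was detected on no siPRKDC array and on 1 siNeg array. UBA7 was kept only through TC32 siNeg, where it was high, so these values are a description. UBE2F, an E2 for NEDD8, was not called in TC32 (-0.17) and lay just outside the threshold in HCT116 (-0.34, adjusted p = 0.0505), where 13 alternatives called it.

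UBE2C, the E2 with which the anaphase-promoting complex starts ubiquitin chains, fell in both lines. It read 9.17, 9.29 and 9.42 in TC32 with siPRKDC, against 9.80, 9.85 and 9.79 with siNeg, a change of -0.52 (SE 0.10, adjusted p = 2.69e-04). UBE2C in HCT116 read 9.02, 8.95 and 8.71 with siPRKDC, against 9.47, 9.42 and 9.39 with siNeg, a change of -0.54 (SE 0.10, adjusted p = 7.24e-04). A dim second probe changed by -0.11 and -0.18 and was not called. UBE2T, the E2 of the Fanconi anaemia pathway for repair of DNA crosslinks, fell by 0.28 in TC32 (SE 0.10, adjusted p = 0.0249), at 8.49, 8.29 and 8.49 with siPRKDC against 8.61, 8.75 and 8.75 with siNeg. In HCT116 it fell by 0.43 (SE 0.10, adjusted p = 0.00315), at 7.38, 7.57 and 7.50 with siPRKDC against 7.88, 7.97 and 7.89 with siNeg. The TC32 call for UBE2T was lost without siNeg replicate 2 or 3 or siPRKDC replicate 2 (adjusted p up to 0.127) and with median scaling (0.0551).

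Proliferation markers were read beside these E2s. Of 15 such genes, 9 fell and 0 rose in TC32 (median -0.31), where 20.4% of all genes fell, and the other 6 were not called. Above zero lay 4 of the 15 changes there. In HCT116, 8 fell, 0 rose and 7 were not called (median -0.34), where 8.66% of all genes fell. Their mean log2 level was 7.22 to 7.27 in TC32 with siPRKDC, against 7.47 to 7.54 with siNeg, and 6.80 to 6.86 in HCT116 with siPRKDC, against 7.18 to 7.22 with siNeg. Their part in the fall of UBE2C and UBE2T was not tested. Fewer dividing cells and less RNA per cell cannot be told apart in such bulk samples.

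**Figure D4:**
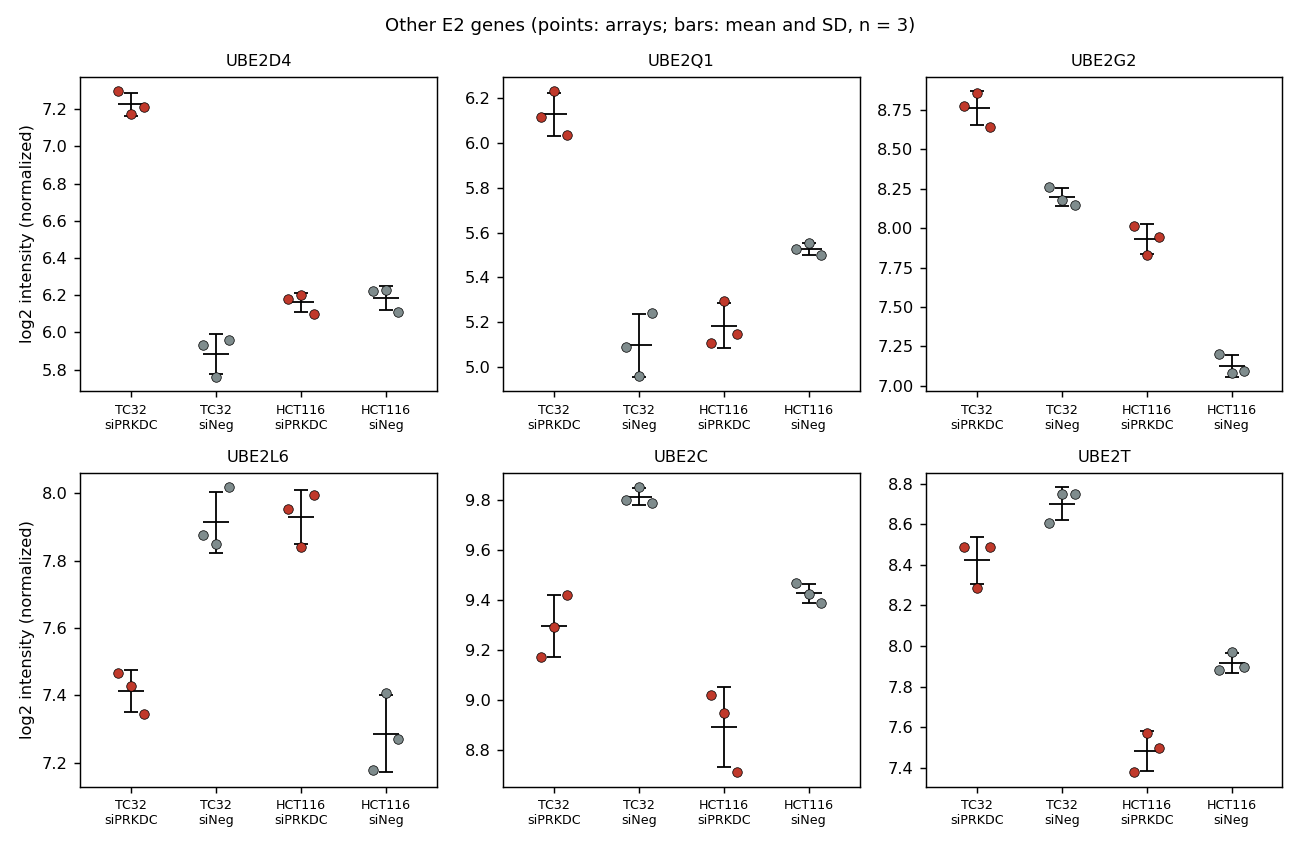
Normalized log2 intensity of 6 other E2 genes on each of the 12 arrays, by group, with group mean and SD (n = 3) and a separate scale per panel. UBE2D4 is higher with siPRKDC in TC32 and overlaps with siNeg in HCT116, UBE2Q1 and UBE2L6 move in opposite directions in the lines, UBE2G2 is higher and UBE2C and UBE2T are lower with siPRKDC in both.

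UBE2Z, which receives ubiquitin from the E1 enzyme UBA6, rose by 0.40 in TC32 (adjusted p = 0.00640), as did the next of its 3 kept probes (0.28), and it changed by -0.23 in HCT116 without being called. UBE2O, which joins E2 and E3 activity in 1 protein, rose by 0.28 in TC32 (adjusted p = 0.0330), a call lost in 9 alternatives, among them without siNeg replicate 1 or 2 or siPRKDC replicate 1 or 3, with adjusted p up to 0.139. AKTIP, a catalytically inactive E2 variant, fell by 0.35 in TC32 (adjusted p = 0.0138), a call lost without siNeg replicate 2 or siPRKDC replicate 3 (adjusted p = 0.0651 and 0.0583). The dim second AKTIP probe changed by -0.10 in TC32 and was not called. UBE2H and UBE2Q2 were not called in either line, and UBE2Q2 lay just outside the threshold in HCT116 (0.35, adjusted p = 0.0507), where 12 alternatives called it. UBE2B, UBE2R2, UBE2S and UBE2U had no kept probe and were detected on 0 to 2 arrays each, and UBE2L3, UBE2M, UBE2QL1 and UBE2W were not analysed here.

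Without background correction all 17 called changes in TC32 and all 6 in HCT116 kept their direction. The change shrank by more than 1.5 times for 8 of the 17 in TC32 (UBE2E3, UBE2D4, UBE2Q1, BIRC6, UBE2K, UBE2E2, UBE2O and CDC34) and for UBE2Q1 in HCT116.

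Called in both lines were 6 E2 genes: UBE2E3, UBE2C and UBE2T fell in both, UBE2G2 rose in both, and UBE2Q1 and UBE2L6 moved in opposite directions. A further 11 were called in TC32 and not in HCT116, 0 were called in HCT116 and not in TC32, and 8 were called in neither. Of all 10386 genes, 8.34% were called in both lines, 3.32% down in both, 2.59% up in both and 2.43% in opposite directions, while 33% were called in TC32 and not in HCT116, 8.64% in HCT116 and not in TC32, and 50% in neither. The overlap of the E2 genes was not tested against these shares. The difference of the effect itself was called for 9 of the 25 genes, 7 with the higher effect in TC32 and 2 with the lower, against 30.1% of all genes, 15.5% higher and 14.6% lower. By probe the difference was called for 9 higher and 5 lower of 36, against 13.6% and 13.3% of all kept probes (26.9% together), and 1 of the 5 was ILMN_1765714. For UBE2Q1 the effect in TC32 minus that in HCT116 was 1.37 (95% interval 1.08 to 1.66, adjusted p = 2.75e-07), for UBE2D4 1.37 (1.10 to 1.64, adjusted p = 1.22e-07) and for UBE2L6 -1.14 (-1.42 to -0.86, adjusted p = 2.08e-06). For UBE2C it was 0.02 (-0.27 to 0.31), for UBE2T 0.16 (-0.12 to 0.44) and for UBE2G2 -0.24 (-0.52 to 0.03), none of them called.

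The lines already differed in many E2s under siNeg. In TC32 against HCT116, 8 of the 25 genes were higher and 9 lower, against 65.3% of all genes called, 29.7% higher and 35.6% lower. The gene most above was UBE2G2, at 8.26, 8.18 and 8.15 in TC32 against 7.20, 7.08 and 7.09 in HCT116 (1.07, adjusted p = 1.90e-09), followed by UBE2T (0.79) and UBE2A (0.69). The gene most below was UBE2K, at 6.18, 6.12 and 6.16 in TC32 against 7.28, 6.78 and 7.01 in HCT116 (-0.87, adjusted p = 5.89e-07), followed by UBE2E2 (-0.68) and UBE2O (-0.51). UBE2E3 was lower in TC32 by 0.28 on its brightest probe (adjusted p = 0.0408) and by 0.57 on the second (adjusted p = 1.18e-04), and the first of these calls was lost in 7 of the alternatives tried, among them without TC32 siNeg replicate 1 or 3 or any HCT116 siNeg replicate, with adjusted p up to 0.223. Scaling arrays to a common median shifted the median of all kept probes in this comparison to -0.17, against -0.03 with quantile normalization, and the E2 probes called were then 8 higher and 16 lower, against 10 and 12 (background 29.5% higher and 32.4% lower, 62% together). Under it UBE2C and UBE2E1, called higher in TC32 by 0.39 and 0.41, were no longer called.

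Other genes of the pathway were read from fixed lists, each gene by its brightest kept probe, against 41.4% of all genes called in TC32 and 17% in HCT116. Of 7 E1 genes, 1 rose (SAE1, for SUMO, 0.26) and 2 fell (UBA3, for NEDD8, -0.39, and UBA7, kept only through TC32 siNeg) in TC32, and 0 were called in HCT116. Of 8 genes for ubiquitin and ubiquitin-like modifiers, 2 rose (UBB and SUMO2, both by 0.31) and 2 fell (ISG15 and SUMO3, -0.31) in TC32, and 1 rose (UFM1, 0.43) and 2 fell (URM1, -0.46, and SUMO3, -0.40) in HCT116. Of 14 genes of the anaphase-promoting complex, 2 rose (ANAPC16, 0.61, and CDC16, 0.34) and 2 fell (ANAPC10, -0.35, and ANAPC13, -0.29) in TC32, and 1 fell (CDC16, -0.30) in HCT116. Of 9 cullin and RING-box genes, 3 rose in TC32 (CUL4A, 0.40, RBX1, 0.30, and CUL3) and 0 were called in HCT116. CUL3, counted among the 3, was kept only through TC32 siPRKDC, where it was detected on all 3 arrays, against none with siNeg.

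Both genes listed as acting with UBE2E3 were called in TC32. NEDD4L, an E3 ligase of sodium channels, rose by 0.78 (SE 0.12, adjusted p = 1.50e-05), at 5.35, 5.35 and 5.38 with siPRKDC against 4.71, 4.46 and 4.56 with siNeg. These siNeg values lay close to the detection limit of 4.39 to 4.40, so the size of the rise is less certain. IPO11, the importin of UBE2E3, fell by 0.38 (SE 0.12, adjusted p = 0.0134), at 6.59, 6.99 and 7.13 with siPRKDC against 7.24, 7.23 and 7.38 with siNeg. Neither was called in HCT116, at 0.03 for NEDD4L and -0.13 for IPO11. Among E2s that the symbol rule leaves out, UFC1, the E2 for the modifier UFM1, fell by 0.78 in TC32 (adjusted p = 9.88e-07) and by 0.30 in HCT116 (adjusted p = 0.0330), and ATG10, an E2-like enzyme of autophagy, rose by 0.37 in TC32.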

How the data were processed

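Arrays were read from 12 samples. The deposited intensity values are linear and carry neither background correction nor normalization, and each has a deposited detection p-value. Deposited log2 values, which by their equal distributions within a line were quantile normalized line by line, served as an alternative only. GenomeStudio, R 3.0.2 and lumi are named in the submitters' processing notes. The members and lists were chosen with earlier results of these data known. Here limma 3.58.1 in R 4.3.3 ran neqc (background inferred from the detection p-values, offset 16, quantile normalization, log2) and fitted 1 cell-means model to all 12 samples (residual df 8, prior df 13.1). Tests were two-sided, and a probe was called where its Benjamini-Hochberg adjusted p-value over the 16555 kept probes of a comparison was below 0.05. The kept probe of highest mean stood for its gene. Named were PRKDC, every E2 gene with a kept probe and, of other lists, up to 4 called members with the smallest p per line. Where no array of a group detected a probe, a fold is a bound against the detection floor. Probes were named from GEO's platform annotation: 30113 had 1 gene, 8 several and 17201 none. In data simulated for the TC32 comparison over 16555 probes, changes of 0.5, 1 and 2 were given to 67, 67 and 66 probes. They were recovered at 73.1%, 98.5% and 100%, with 8 false calls among 189. In the measured TC32 comparison 37.8% of kept probes were called, far more than were changed there, so these rates do not carry over. Alternatives were another background correction, scaling, filter, sample set, variance setting, block and probe choice, and leaving out each array.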

Additional observations from a re-analysis of the deposited data

Results flagged for a closer look

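For 9 E2 genes, the effect of siPRKDC differed between the lines by the limma test of the difference itself. The effect in TC32 minus that in HCT116, on the log2 scale, was 1.37 for UBE2Q1, 1.37 for UBE2D4, 0.94 for UBE2N, 0.92 for BIRC6, 0.63 for UBE2Z, 0.58 for UBE2A and 0.49 for UBE2K. It was -1.14 for UBE2L6 and -0.55 for UBE2E1. The UBE2K call (adjusted p = 0.0252) was lost without the filter on dim probes, without HCT116 siNeg replicate 1 and without HCT116 siPRKDC replicate 2, with adjusted p up to 0.0886. The UBE2E3 probe ILMN_1765714 had a difference of -0.39, given as a description because the probe was kept only through HCT116 siPRKDC, where it was high. PRKDC also differed on its brightest probe, by 1.25. Its other 2 probes had differences of -0.08 and -0.19. With siPRKDC they lay at the detection limit, detected on 0 or 1 arrays per line. They therefore cannot show whether the fall of PRKDC differed between the lines. The part of PRKDC in these differences was not tested.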

How the results depend on the processing

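Over the alternatives tried for single genes, 920 results of called genes kept their call and 43 lost it, none with a change of sign; of genes not called, 967 stayed so, 33 became called and 44 changed sign. The cause of these changes was not tested. The UBE2E3 probe ILMN_1669553 was not tested with 1 probe per gene, or where a detection p below 0.01 was required on all 12 arrays. Both falling UBE2E3 probes were called in both lines under every alternative in which they were tested, 22 for ILMN_2390338 and 20 for ILMN_1669553. Their difference between lines became called for ILMN_1669553 without background correction (0.22, adjusted p = 0.0377), and leaving out single arrays it ran from -0.45 to -0.23 for ILMN_2390338, called without TC32 siPRKDC replicate 1 (adjusted p = 0.0407). For ILMN_1765714, kept only through HCT116 siPRKDC, the difference was no longer called without background correction (-0.16) and without the filter (-0.39, adjusted p = 0.0558), and ran from -0.49 to -0.34 without single arrays, lost in 9 of these 12 cases (adjusted p up to 0.104); its change in TC32 ran from -0.052 to 0.10. With 1 probe per gene, 9 E2 probes were called for the difference. With median scaling, 3 E2 probes were called up and 8 down in HCT116, against 3 and 5.

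Signs changed only for values not called. With cyclic loess, in HCT116, UBE2D4 was 0.013, UBE2K 0.0017 and UBE2V1 0.0077, and the difference between lines was -0.078 for UBE2C, -0.043 for UBE2G1 and -0.005 for UBE2J1. With median scaling, in HCT116, UBE2E1 was -0.044 and UBE2G1 -0.050, and under siNeg UBE2J2 was -0.19, UBE2N -0.11 and UBE2V2 -0.20. Leaving out single arrays, the change in TC32 ran from -0.31 to 0.071 for UBE2H, -0.058 to 0.24 for UBE2J2, -0.082 to 0.13 for UBE2Q2 and -0.19 to 0.018 for UBE2V1. In HCT116 it ran from -0.17 to 0.013 for AKTIP, -0.082 to 0.072 for CDC34, -0.063 to 0.0052 for UBE2D4, -0.013 to 0.10 for UBE2G1, -0.003 to 0.18 for UBE2J1, -0.14 to 0.11 for UBE2K and -0.092 to 0.052 for UBE2V1. The difference ran from -0.075 to 0.081 for UBE2C, -0.055 to 0.061 for UBE2G1, -0.053 to 0.13 for UBE2J1 and -0.18 to 0.027 for UBE2V1. Under siNeg, TC32 minus HCT116 ran from -0.10 to 0.017 for UBE2G1, -0.26 to 0.067 for UBE2H and -0.059 to 0.052 for UBE2J2.

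Pairing of samples by replicate number was not shown. The deviations of same-number samples correlated by 0.01, 0.04 and 0.10 in TC32 and 0.00, 0.06 and 0.04 in HCT116. The same number gave the highest correlation for replicate 3 in TC32 and for 2 and 3 in HCT116, but not for the rest. With the replicate number as a block, 22 E2 probes were called in TC32, 10 in HCT116 and 14 for the difference, against 22, 8 and 14 without it. The slide as a block was not run, as the headers name no slides. Values near the detection limit carry little signal over background.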
